A study of Mus musculus with 12 samples.

Results

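E14 mouse embryonic stem cells with a knockout of Mettl3 (KO) were compared between a paused state and growth in serum. Paused KO cells had received the mTOR inhibitor INK128 at 200 nM for 2 weeks, and KO cells in FBS had grown with serum and LIF, on gelatin, for the same time. Each of these groups held 3 libraries, so 6 of the 12 libraries of the series were taken, chosen by genotype and treatment alone. The other 6 libraries were wild type (WT) E14 cells, paused or in FBS, and enter below only where the change in KO cells was set against the change in WT cells. Polyadenylated RNA from 200000 cells per sample was sequenced with a strand-specific kit after synthetic ERCC RNAs had been added to the RNA. The labels do not say whether the KO cells were 1 clone or several, which part of Mettl3 was targeted, or whether the libraries of a group came from separate cultures. The p-values below therefore measure the spread between these libraries, which may be technical.

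Mettl3 is the enzyme that methylates adenosines of messenger RNA to N6-methyladenosine (m6A), a mark that in stem cells shortens the life of many transcripts. The kinase mTOR senses amino acids and growth factors and drives ribosome production, translation and lipid synthesis, while it restrains autophagy and lysosome production. Its inhibition brings embryonic stem cells into a slowly growing, still pluripotent state that resembles embryonic diapause, in which total RNA output is lowered.

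The KO libraries held 19501717 to 29793338 reads assigned to genes or ERCC RNAs. The ribosomal RNA precursor Rn45s and the mitochondrial synthetase gene Lars2, which shares sequence with ribosomal RNA, together took 13.9% to 30.5% of their gene counts. Mettl3 was read at 30.6, 33.4 and 31.7 CPM (counts scaled to library size, with TMM factors) in paused KO libraries 1, 2 and 3, against 27.5, 29.7 and 30.2 CPM in KO FBS libraries 1, 2 and 3. The log2 difference of 0.13 ± 0.07 (SE) was not called (edgeR, adjusted p = 0.13). Counts over the whole gene do not show whether the message still encodes a working protein. The core pluripotency markers summed to 4088 ± 185 CPM in paused KO cells and 4525 ± 425 CPM in KO cells in FBS (SD, n = 3 each), with none of the 8 at 0. Trophoblast, neural, germline and other lineage markers were also read, at lower sums given beside the genes they touch.

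RNA per cell was taken as the gene counts per ERCC count, since RNA came from equal numbers of cells. It was 36.5, 40.3 and 38.2 in paused KO libraries 1, 2 and 3, against 47.4, 93.5 and 64.6 in KO FBS libraries 1, 2 and 3. All paused libraries lay below all FBS libraries, and the FBS libraries spread widely while the paused ones lay close together. The mean log2 difference was -0.78 ± 0.29 (SE), a ratio of 0.581 (exact two-sided permutation test, p = 0.1, the smallest that 3 against 3 libraries can give). Without Rn45s and Lars2 the groups overlapped, at 27.6, 34.4 and 32.9 in paused KO libraries against 33.0, 75.5 and 55.5 in KO FBS libraries, with a log2 difference of -0.71 (exact p = 0.2). Paused WT libraries stood at 29.0, 37.4 and 32.6, and WT FBS libraries at 72.4, 73.3 and 74.6. The spike-in went into the RNA, so losses before that step are not corrected.

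**Figure D1:**
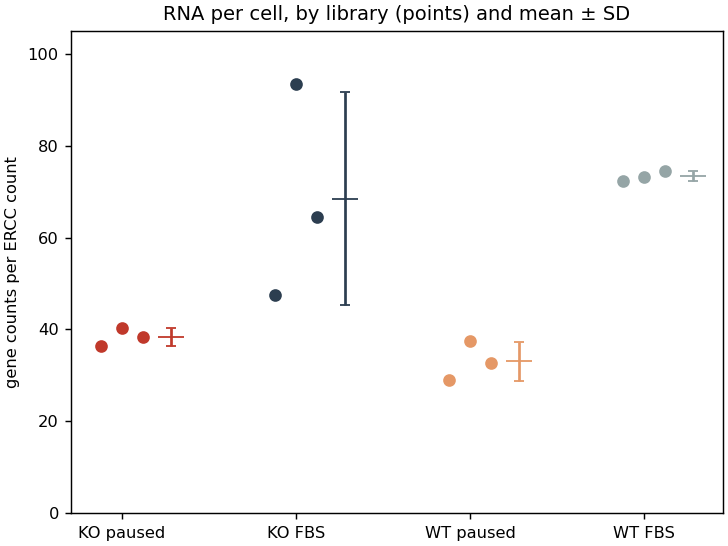
Gene counts per ERCC count (vertical axis, a ratio) in each library of the 4 groups, with the mean and SD beside the points. The paused KO libraries lie between 36.5 and 40.3, below all KO FBS libraries, which range between 47.4 and 93.5.

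Of 14977 genes tested, 9358 (62.5%) were called different between paused KO cells and KO cells in FBS relative to the typical gene, at an adjusted p under 0.05. Of these, 4823 (32.2%) were higher and 4535 (30.3%) were lower in paused cells. At least a 2-fold change was seen for 1031 genes (6.88%) that were higher and 1251 genes (8.35%) that were lower. The libraries of both groups did not overlap for 10027 genes (66.9%). Per cell, on the ERCC scale, 280 genes (1.87%) were higher in paused KO cells and 5411 (36.1%) were lower, together 5691 (38%). The median gene changed by 0.02 on the relative log2 scale and by -0.74 per cell. All 280 genes that were higher per cell were also higher on the relative scale, 4513 genes were lower on both scales, and 4543 were higher on the relative scale with no call per cell.

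The per-cell counts depended on which libraries entered. Leaving out single libraries, paused or FBS, gave 1379 (without paused replicate 2) to 11342 (without FBS replicate 1) per-cell calls, while the relative calls stayed between 8419 and 9710. The biological coefficient of variation was 0.0668 on the relative scale and 0.286 per cell. Changes below are on the relative log2 scale unless a per-cell value is named. A fit of all 12 libraries, with a shared spread, called 6518 of 15281 genes (42.7%), 23.3% higher and 19.4% lower, so counts for gene lists are given from that fit too where they differ by over 1.5 times. In bulk RNA fewer cells of a type and less RNA per cell cannot be told apart.

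Genes of 3 chromosome segments moved together, in segments chosen after their values were seen. On chromosome 1 between 15 and 60 Mb, 122 of 162 genes (75.3%) were lower in paused KO cells and 17 (10.5%) were higher, with a median change of -0.73. On chromosome 3 between 100 and 140 Mb, 136 of 190 genes (71.6%) were higher and 22 (11.6%) lower, with a median of 0.67. On chromosome 11 between 80 and 122 Mb, 358 of 547 genes (65.4%) were lower and 69 (12.6%) higher, with a median of -0.48. Among the other 12806 genes with at least 1 CPM, 34.8% were higher and 29.3% lower, with a median of 0.04.

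Each paused KO library showed the shifts with KO FBS as the reference, so these values do not say which group moved. Against the KO FBS mean, the segment medians in paused libraries 1, 2 and 3 were -0.73, -0.73 and -0.66 on chromosome 1, 0.67, 0.62 and 0.62 on chromosome 3, and -0.44, -0.47 and -0.43 on chromosome 11. With pausing of WT cells the same segments had medians of -0.05, -0.06 and -0.07. Paused KO cells differed from paused WT cells by medians of -0.34 on chromosome 1, 0.78 on chromosome 3 and 0.07 on chromosome 11. KO cells in FBS differed from WT cells in FBS by 0.34, 0.05 and 0.43 on the same segments. DNA copy number was not tested. Of 259 windows of 10 Mb, 17 had a median beyond 0.4 in size, of which 11 lay on chromosomes 1, 3 and 11 and 4 on chromosome X, where the lowest was -0.76. Genes named below that lie in a segment are marked as such, since their part in the shift was not tested. Without the genes of the 3 segments 8597 genes were called, 4597 higher and 4000 lower.

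**Figure D2:**
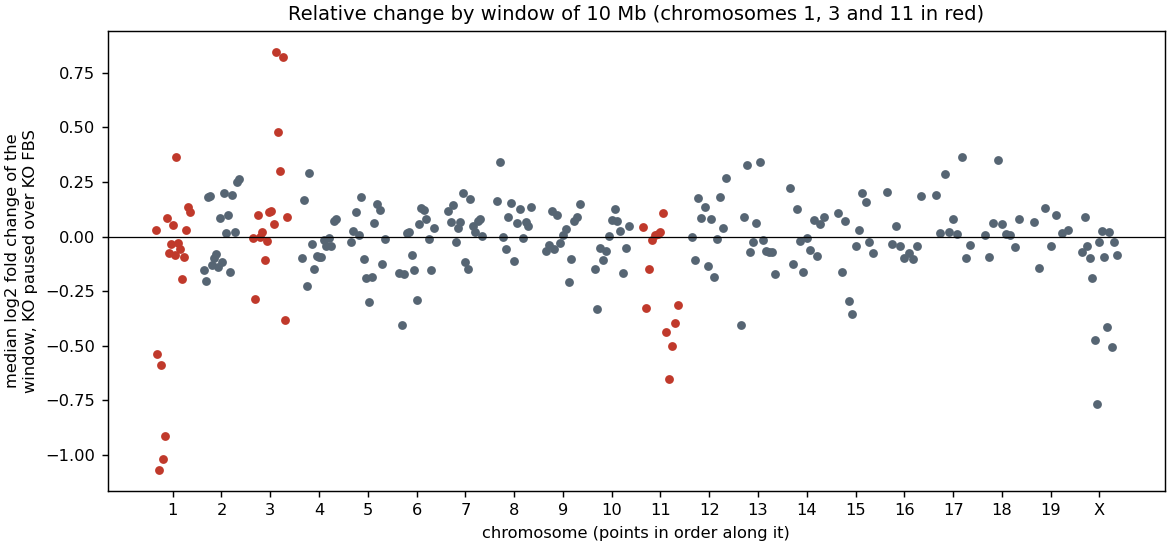
Median relative log2 change (paused KO over KO FBS) of the genes in each window of 10 Mb, in order along each chromosome, with chromosomes 1, 3 and 11 in red. Of 259 windows 17 lie beyond 0.4 in size, 11 of them on chromosomes 1, 3 and 11 and 4 on chromosome X.

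The genes most raised in paused KO cells included transcription factors of the early neural plate. Sox1, which marks the first neuroectoderm (chr8:12395295-12400126 in GENCODE on GRCm38), was read at 14.2, 16.3 and 26.0 CPM in paused KO libraries, against 0.557, 0.915 and 0.472 CPM in KO FBS libraries. It was high in all paused libraries and near the detection limit in all FBS libraries, with a log2 change of 4.87 ± 0.33 (adjusted p = 9.2e-07) and of 4.09 per cell. Its mean in paused KO cells was 18.8 ± 6.30 CPM (SD, n = 3), while WT cells had means of 122.7 CPM paused and 17.3 CPM in FBS with the factors of all 12 libraries; these levels were not tested between genotypes. Gsx1, a homeobox factor of the ventral forebrain and spinal cord, had 7.79, 7.26 and 10.4 CPM in paused KO libraries against 0.325, 0.381 and 0.472 CPM in KO FBS libraries. The groups did not overlap, and the change was 4.41 ± 0.23 (adjusted p = 9.9e-10). Six3, a homeobox factor of the anterior neural plate and eye field, stood at 7.80 ± 1.34 CPM in paused KO cells and 0.583 ± 0.237 CPM in KO cells in FBS (SD, n = 3 each), a change of 3.72 (adjusted p = 6.1e-09).

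Of 30 neural progenitor markers, 15 passed the filter on low counts, so 15 are not described by these counts. Of the 15, 9 were higher in paused KO cells and 3 lower, with a median change of 0.90, and per cell 4 were higher and 3 lower. Pax6, a factor of the neural tube and eye, changed by 1.37 ± 0.11 (adjusted p = 1.1e-07) and Sox21, which holds progenitors in the neural lineage, by 1.85 ± 0.10 (adjusted p = 1.5e-09). Nes, which encodes the progenitor filament nestin, went the other way with -0.95 ± 0.06, and Neurog1, a proneural factor, with -2.18 ± 0.29. The whole list summed to 234 ± 22.9 CPM in paused KO cells and 145 ± 12.3 CPM in KO cells in FBS, with 1 marker at 0 and 6 with no more than 10 counts over all libraries. Its median member stood at 0.267 CPM in paused KO cells and 0.405 CPM in KO cells in FBS, so the sum followed a few genes, and markers read mainly in paused cells passed the filter through that group. Without FBS replicate 1, 5 members were lower.

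The strongest rises outside these factors were in genes of other functions. Fgf18, a secreted growth factor (chromosome 11, outside the segment), had 59.6, 68.0 and 66.7 CPM in paused KO libraries against 4.59, 4.31 and 5.63 CPM in KO FBS libraries. The libraries of each group lay close together, and the change of 3.73 ± 0.10 (adjusted p = 2.6e-12) remained called per cell, at 3.0. Casq2, the calcium store protein calsequestrin (in the chromosome 3 segment), changed by 3.72, Gad1, which makes the transmitter GABA, by 3.48, and Igfbpl1, an insulin-like growth factor binding protein, by 3.08. Nphs1, the nephrin gene of the kidney slit diaphragm, was highest among them in level, with 169 ± 12.9 CPM in paused KO cells and 22.5 ± 1.91 CPM in KO cells in FBS (SD, n = 3 each).

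**Figure D3:**
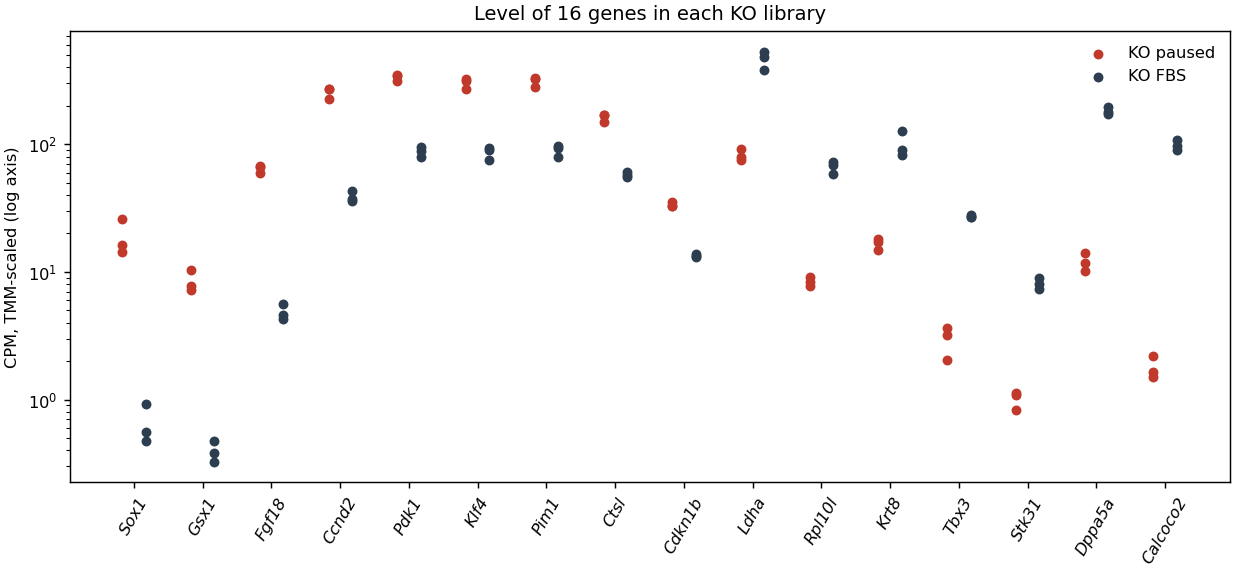
CPM (log axis) of 16 genes in each paused KO library (red, left of each pair) and each KO FBS library (dark). The groups do not overlap for any gene shown; Sox1 lies between 14.2 and 26.0 CPM in paused libraries, and Dppa5a between 10.2 and 14.2 CPM there.

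Epithelial and trophoblast genes were among the most lowered. Plac8, a placenta-enriched gene, had 9 counts over the 3 paused KO libraries against 856 over the KO FBS libraries, which is 86.6-fold lower per scaled library size (95% exact interval 45.4 to 190.1, counting error only). Krt8, the keratin of simple epithelia and trophectoderm (chromosome 15), had 18.0, 17.2 and 14.9 CPM in paused KO libraries against 127, 90.1 and 82.2 CPM in KO FBS libraries. Every paused library was below every FBS library, with a change of -2.59 ± 0.18 (adjusted p = 4.3e-06) and of -3.28 per cell. Krt18, its partner, changed by -3.15, Krt7 by -3.83, and Dsp, the desmosome protein desmoplakin, by -3.61.

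Of 24 trophoblast markers 21 were tested, and 20 of these were lower in paused KO cells and 1 higher, with a median of -2.51. Per cell 20 were lower and none of the 21 was called higher. Gata3, a trophectoderm regulator, stood at 1.02 ± 0.322 CPM in paused KO cells and 8.93 ± 1.52 CPM in KO cells in FBS (SD, n = 3 each), a change of -3.20 (adjusted p = 1.1e-08). Igf2, a fetal growth factor, changed by -2.32 (adjusted p = 1.4e-06). Fgfr2, the receptor by which trophoblast stem cells take up FGF signals, was the member that was higher, at 0.30 (adjusted p = 0.00078), a call lost in the fit of all 12 libraries (adjusted p = 0.069). The whole list summed to 164 ± 6.73 CPM in paused KO cells and 426 ± 43.2 CPM in KO cells in FBS. Its median member stood at 0.906 CPM in paused KO cells and 6.72 CPM in KO cells in FBS. Markers read mainly in FBS, such as Plac8 and Krt7, passed the filter on low counts through that group, so the count of lower members depends on it.

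Other genes near the bottom of the table had varied functions. Calcoco2, known in human cells as an autophagy receptor and lying in the chromosome 11 segment, had 1.51, 2.17 and 1.64 CPM in paused KO libraries against 96.8, 90.5 and 107 CPM in KO FBS libraries. The groups were far apart, and its change of -5.80 ± 0.12 (adjusted p = 2.9e-13) was larger than the median of -0.65 for its nearest genes. Vrtn changed by -5.40 and Acpp, a secreted phosphatase, by -5.34. Pramef12, of the PRAME family, changed by -4.39 and Rhox5, a homeobox gene of the X-linked reproductive cluster, by -4.32.

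Germline genes encode proteins of meiosis and of the piRNA pathway, and many are held silent by DNA methylation in other cells. Of 20 such genes 16 were tested, with 12 lower and 1 higher in paused KO cells and a median of -1.30. Per cell 14 were lower. Stk31, a germ cell kinase-like protein, had 0.831, 1.09 and 1.13 CPM in paused KO libraries against 7.98, 7.40 and 8.93 CPM in KO FBS libraries. All paused libraries were near 1 CPM and below all FBS libraries, a change of -2.97 ± 0.17 (adjusted p = 2.7e-09). Mael, which acts in transposon silencing, changed by -3.35 and Taf7l, a germ cell TFIID subunit, by -1.70. Ddx4, the germ cell helicase vasa, changed by -0.55, while Tdrd1, a scaffold of piRNA biogenesis, was higher by 0.59. The whole list summed to 69.9 ± 4.61 CPM in paused KO cells and 120 ± 4.03 CPM in KO cells in FBS. Its median member stood at 1.02 CPM in paused KO cells and 3.07 CPM in KO cells in FBS. Here too, genes read mainly in FBS, such as Mael, passed the filter on low counts through that group.

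Many promoters of such genes carry the E-box CACGTG. The stretches below lie upstream of the start site of 3 germline genes that were lower, with CACGTG in capitals; they are from RefSeq on GRCm38.p6 and are written 5′ to 3′ on the gene's strand. They span chr6:49395444-49395529 on the plus strand for Stk31, chrX:134476494-134476579 on the minus strand for Taf7l and chr1:166238922-166238994 on the minus strand for Mael.
Stk31: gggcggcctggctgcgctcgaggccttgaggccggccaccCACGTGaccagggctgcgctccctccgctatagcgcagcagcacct
Taf7l: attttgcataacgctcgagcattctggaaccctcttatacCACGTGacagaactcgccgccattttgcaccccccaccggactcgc
Mael: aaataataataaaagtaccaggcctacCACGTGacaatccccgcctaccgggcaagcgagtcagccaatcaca
The E-box starts 55 bases before the start site in Stk31, 49 in Taf7l and 223 in Mael. In windows of 250 bases before to 50 after the start, searched on both strands, CACGTG was found for 9 of 14 tested germline genes with a window (64.3%), against 11.5% of 11184 tested genes with one. Of the 10 lower genes with a window 7 held it, and so did the 1 that was higher. A GCGGGAA motif was found for 4 of the 14 (28.6%), against 9.64% of the tested genes. Such a match describes the sequence and does not show binding.

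The pluripotency network changed in both directions. Of 24 naive pluripotency genes 9 were higher and 9 lower in paused KO cells, with a median of -0.06. These counts are not far above the 32.2% and 30.3% of all genes. Their sum was 3108 ± 152 CPM in paused KO cells and 2612 ± 143 CPM in KO cells in FBS. The median member stood at 70.8 CPM in paused KO cells and 80.3 CPM in KO cells in FBS. Klf4, a naive-state factor (chr4:55527143-55532466), had 272, 314 and 326 CPM in paused KO libraries against 75, 93.6 and 89.7 CPM in KO FBS libraries. All paused libraries exceeded all FBS libraries, with a change of 1.82 ± 0.09 (adjusted p = 9.4e-10) and of 1.03 per cell (adjusted p = 0.025). Esrrb, a nuclear receptor of the naive state, changed by 1.21 and Gbx2, a homeobox target of LIF signalling, by 2.07. On the per-cell scale Gbx2 was called at 1.25 (adjusted p = 0.0069). These 2 per-cell calls were lost without FBS replicate 3, paused replicate 2 or paused replicate 3, and that of Klf4 also without paused replicate 1, with adjusted p up to 0.26.

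Other naive genes were strongly lowered. Dppa5a, an RNA-binding protein of pluripotent cells (chromosome 9), had 10.2, 11.7 and 14.2 CPM in paused KO libraries against 172, 180 and 196 CPM in KO FBS libraries. Every paused library was far below every FBS library, with a change of -3.91 ± 0.10 (adjusted p = 2.6e-12) and of -4.68 per cell. Tbx3, a T-box factor of the naive network, had 3.22, 3.61 and 2.03 CPM in paused KO libraries against 27.1, 27.0 and 28.1 CPM in KO FBS libraries, a change of -3.26 (adjusted p = 2e-10). Pecam1, an adhesion molecule in the chromosome 11 segment, changed by -3.20. Nanog changed by -0.42 ± 0.07 (adjusted p = 6.5e-05), with 181, 196 and 181 CPM in paused KO libraries against 232, 245 and 269 CPM in KO FBS libraries, which did not overlap.

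Of the core factors, Sox2 was higher by 0.48 ± 0.07 (adjusted p = 3.4e-05). Pou5f1 (Oct4) had 427, 475 and 479 CPM in paused KO libraries against 452, 561 and 576 CPM in KO FBS libraries. These overlapped, and the change of -0.20 ± 0.08 lay at the threshold without passing (adjusted p = 0.05); it was called with DESeq2 (adjusted p = 0.016) and without FBS replicate 1 (adjusted p = 0.00016). Of 20 formative and primed genes 12 were higher and 8 lower, and 7 higher with 6 lower in the fit of all 12 libraries. The median of the list was 0.40. Among the lower members were the epiblast genes Fgf5 at -3.72, Otx2 at -2.15 and the methyltransferase Dnmt3b at -1.04. Tcf15, which primes epiblast cells, was higher by 2.20.

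Some genes of LIF, FGF and BMP signalling were called, where 32.2% of all genes were higher and 30.3% lower. LIF acts through its receptor and Stat3 to sustain self-renewal, and 7 of 10 genes of this pathway were higher with none called lower, at a median of 0.32. Pim1, a kinase induced by Stat3 (chromosome 17), had 282, 332 and 327 CPM in paused KO libraries against 78.8, 92.9 and 96.4 CPM in KO FBS libraries. All paused libraries were above all FBS libraries, with a change of 1.81 ± 0.08 (adjusted p = 3.9e-10) and of 1.03 per cell. The per-cell call was lost without FBS replicate 3 or any 1 of the paused replicates, with adjusted p up to 0.27. The receptor gene Lifr changed by 0.87. Among negative feedback genes of the ERK pathway, Spry4 changed by 1.99 and Spred1 by 1.26. The 49 genes nearest to Spry4 had a median change of 1.55, while the 122 genes of its 10 Mb window had one of 0.35. Whether Spry4 shares in a change of its neighbours was not tested. Of the 22 tested genes of ERK feedback 10 were higher and 8 lower, not far above the shares of all genes.

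Of 15 tested FGF ligands and receptors 6 were higher and 5 lower, near the 32.2% and 30.3% of all genes. Fgf4, the autocrine FGF of embryonic stem cells, had 70.9, 78.2 and 71.7 CPM in paused KO libraries against 154, 173 and 187 CPM in KO FBS libraries, a change of -1.22 ± 0.07 (adjusted p = 4e-09). Bmp4 changed by -1.80 (adjusted p = 1.8e-07). Id1, a direct BMP target, had 9.61, 9.04 and 8.95 CPM in paused KO libraries against 30.9, 38.3 and 73.4 CPM in KO FBS libraries. FBS replicate 3 lay far above the others, and the change was -2.38 ± 0.40 (adjusted p = 0.0043). Of 17 genes of the BMP pathway and the Id family 5 were higher and 8 lower, against the same shares of all genes.

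The machinery of protein synthesis split by part. Of 81 cytosolic ribosomal protein genes 29 were higher and 15 lower in paused KO cells, with a median of 0.12, close to that of all genes. The higher share was near the 32.2% of all genes, and the lower share was below their 30.3%. In the fit of all 12 libraries both shares were below the 23.3% and 19.4% of all genes. The higher count was 10 in the fit of all 12 libraries, 18 without paused replicate 2 and 15 without paused replicate 3, and the lower count was 8 in the fit of all 12 libraries and 9 without the 3 segments. Rpl3 changed by 0.32, while Rpl7, in the chromosome 1 segment, changed by -0.99. The paralogs Rpl10l and Rpl39l, known from the testis, were lowest. Rpl10l had 8.36, 7.71 and 9.08 CPM in paused KO libraries against 58.5, 68.2 and 73.1 CPM in KO FBS libraries, a change of -2.98 ± 0.10 (adjusted p = 1.2e-11), and Rpl39l changed by -2.35. Both resemble other ribosomal protein genes closely, so the assignment of their reads is uncertain. Per cell 14 of the 81 were lower and none was called higher, with a median of -0.66.

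Mitochondrial ribosomal proteins, ribosome biogenesis factors and translation factors had more lower than higher members. Among 76 mitochondrial ribosomal protein genes 50 were lower and 3 higher (28 and 1 in the fit of all 12 libraries), at a median of -0.30. Among 50 ribosome biogenesis genes 31 were lower and 5 higher (10 and 2, where the lower share is near the 19.4% of all genes in that fit), at a median of -0.23. Among 46 translation factors 31 were lower and 6 higher (16 and 4), at a median of -0.31. Pabpc1, the poly(A) binding protein, changed by -0.87 and Eef1d, an elongation factor subunit, by -0.94. Higher were Eef2k, the kinase that slows elongation, at 1.00, Pdcd4, an inhibitor of the helicase eIF4A, at 1.04, and the cap-binding protein Eif4e, in the chromosome 3 segment, at 1.22. Eif4ebp1, the mTOR target that blocks eIF4E, changed by -0.39 ± 0.06 (adjusted p = 5.6e-05), a call lost in the fit of all 12 libraries (adjusted p = 0.16).

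Polymerases I and III make ribosomal and transfer RNA, and 16 of their 29 genes were lower and 7 higher. Of all genes 30.3% were lower and 32.2% higher. In the fit of all 12 libraries 6 each were called, near the 19.4% lower and 23.3% higher of all genes there. Polr3g, the stem cell form of a polymerase III subunit, changed by -0.95, whereas Maf1, a repressor of polymerase III that mTOR inactivates, was higher by 0.62 and Polr1a by 0.62. The proteasome degrades ubiquitin-tagged proteins, and 33 of its 37 genes were lower with 1 higher (19 and 1 in the fit of all 12 libraries), at a median of -0.43. Psmd14, the deubiquitinase of the lid, changed by -0.62 and Psmb3, in the chromosome 11 segment, by -1.16. The 1 that was higher was Psma5, at 0.95, which lies in the chromosome 3 segment. The antioxidant response element TGACNNNGC, searched as above, was found for 5 of 30 proteasome genes with a window (16.7%), against 16.8% of tested genes with one. Of 23 chaperonin and heat shock genes 16 were lower (7 in the fit of all 12 libraries) and none was called higher, with Hspd1, the mitochondrial chaperonin in the chromosome 1 segment, at -1.60 and Hsp90aa1 at -0.55.

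Myc and Mycn are known as drivers of growth genes. Myc had 48.8, 52.6 and 52.6 CPM in paused KO libraries against 48.9, 55.9 and 49 CPM in KO FBS libraries, which overlapped (adjusted p = 0.97). Mycn had 393, 404 and 417 CPM in paused KO libraries against 274, 329 and 345 CPM in KO FBS libraries, a change of 0.36 ± 0.08 (adjusted p = 0.00097) that was not called in the fit of all 12 libraries (adjusted p = 0.15).

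**Figure D4:**
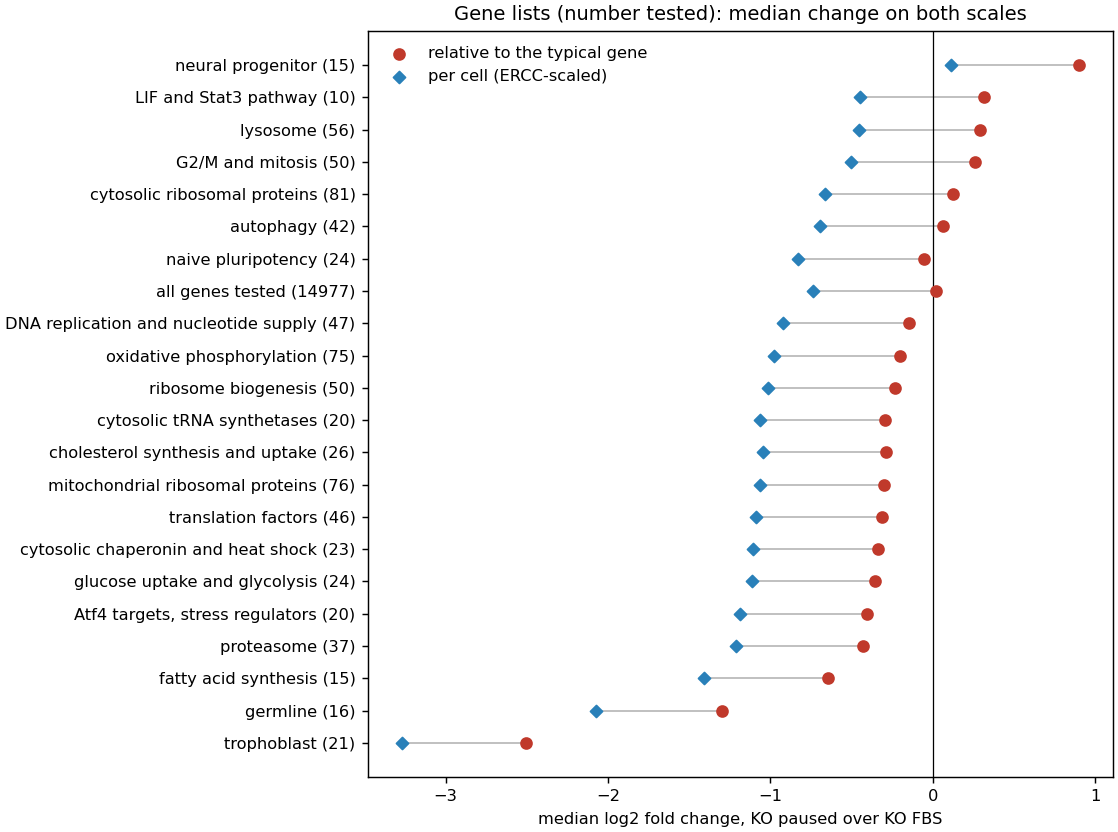
Median log2 change (paused KO over KO FBS) of 21 gene lists and of all 14977 genes tested, relative to the typical gene (circles) and per cell (diamonds), with the number of genes tested in brackets. Trophoblast and germline genes lie lowest on both scales, at -2.51 and -1.30 on the relative one, and neural progenitor genes highest, at 0.90. Members read mainly in a single group passed the filter on low counts through that group.

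Genes induced by the stress factor Atf4, which raises amino acid synthesis and uptake, had more lower than higher members. Of 20 stress regulators among its targets 11 were lower and 4 higher (6 and 3 in the fit of all 12 libraries), with a median of -0.41. Trib3, a pseudokinase of the stress response, had 3.90, 4.74 and 3.44 CPM in paused KO libraries against 12.3, 9.91 and 11.8 CPM in KO FBS libraries. The groups did not overlap, and the change was -1.51 ± 0.14 (adjusted p = 3.7e-07). Nupr1, a stress-induced chromatin protein read near 1 CPM in FBS, changed by -2.03 and Cth, of cysteine synthesis, by -1.63. Higher members included Stc2, a secreted glycoprotein, at 1.18 and Cebpg, a dimer partner of Atf4, at 0.92.

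Of 20 amino acid transporters 8 were lower and 5 higher (4 and 4 in the fit of all 12 libraries), with a median of -0.09. Of all genes 30.3% were lower and 32.2% higher. Of 13 genes of serine and folate metabolism 6 were lower and 2 higher (3 and 1 in the fit of all 12 libraries). Psat1 and Phgdh, which make serine, changed by -0.83 and -0.92, and Mthfd2, the mitochondrial folate enzyme, by -1.30. Of 20 cytosolic tRNA synthetases 14 were lower (5 in the fit of all 12 libraries) and 2 higher. Sars, one of the 2, was at 0.79 and lies in the chromosome 3 segment. Asns, which makes asparagine, had 79.3, 80.5 and 81.7 CPM in paused KO libraries against 114, 113 and 117 CPM in KO FBS libraries. The libraries of each group lay within a few CPM of each other, and the change was -0.51 ± 0.05 (adjusted p = 1.1e-06).

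Atf4 binds with C/EBP partners at a composite site, searched here as TGATGNAA. The upstream stretches of Nupr1 and Asns, which were lower, show it in capitals, from RefSeq on GRCm38.p6. They are written 5′ to 3′ on the gene's strand and span chr7:126625533-126625620 on the minus strand for Nupr1 and chr6:7693210-7693272 on the minus strand for Asns; in Nupr1 the site is on the other strand and so reads in reverse complement.
Nupr1: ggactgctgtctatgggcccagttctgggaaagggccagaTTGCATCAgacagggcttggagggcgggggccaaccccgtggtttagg
Asns: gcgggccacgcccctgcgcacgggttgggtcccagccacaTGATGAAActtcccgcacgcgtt
The site starts 110 bases before the start in Nupr1 and 23 in Asns. It was found for 8 of 18 stress regulators with a window (44.4%), for 5 of 12 cytosolic tRNA synthetases (41.7%), and for 2.83% of all tested genes with one. Of the 9 stress regulators that were lower and had a window 6 held it, and of the 4 that were higher 0 did.

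Glucose and lipid metabolism changed enzyme by enzyme. Ldha, which makes lactate from pyruvate (chromosome 7), had 79.3, 75.3 and 92.2 CPM in paused KO libraries against 380, 478 and 530 CPM in KO FBS libraries. Each paused library was below each FBS library, with a change of -2.49 ± 0.12 (adjusted p = 3.2e-08) and of -3.29 per cell. Its counterpart Ldhb, which favours pyruvate, was higher by 1.57. Of the lactate carriers, Slc16a3, in the chromosome 11 segment, changed by -2.32 and Slc16a1, in the chromosome 3 segment, by 1.15. Pdk1, which keeps pyruvate out of the mitochondrion, had 311, 342 and 347 CPM in paused KO libraries against 80.1, 95 and 88.8 CPM in KO FBS libraries, a change of 1.92 ± 0.07 (adjusted p = 4.6e-11) and of 1.14 per cell. The per-cell call of Pdk1 was lost without FBS replicate 3, paused replicate 2 or paused replicate 3, with adjusted p up to 0.22. Of 24 genes of glucose uptake and glycolysis 14 were lower and 8 higher, against 30.3% and 32.2% of all genes. The higher share was thus near that of all genes.

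Lipid genes under SREBP control had more lower than higher members. Of 15 fatty acid synthesis genes 9 were lower and 3 higher, at a median of -0.65. Scd1, the desaturase that makes oleate, changed by -1.61, and Fasn, the fatty acid synthase in the chromosome 11 segment, by -0.80. Of 26 genes of cholesterol synthesis and uptake 16 were lower and 3 higher (4 and 1 in the fit of all 12 libraries, where the lower share is below the 19.4% of all genes). The sterol element TCACNCCAC was found for 1 of 18 cholesterol genes with a window (5.56%), against 1.52% of tested genes with one. Of 75 genes of oxidative phosphorylation 40 were lower and 5 higher, at a median of -0.20, against 30.3% and 32.2% of all genes. In the fit of all 12 libraries 14 were lower and 3 higher, and the lower share was near the 19.4% of all genes there.

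Genes of the lysosome, which mTOR represses through Tfeb and its relatives, had more higher than lower members relative to the typical gene. Of 56 tested lysosomal genes 37 were higher and 9 lower (16 and 6 in the fit of all 12 libraries), with a median of 0.29. Of all genes 32.2% were higher and 30.3% lower, and 23.3% and 19.4% in the fit of all 12 libraries. The higher share of the list was not far above that of all genes in the latter fit. Per cell 2 were higher and 9 lower, with a median of -0.46. Ctsl, a cysteine protease (chromosome 13), had 168, 170 and 149 CPM in paused KO libraries against 60.3, 54.9 and 57.5 CPM in KO FBS libraries. All paused libraries lay above all FBS libraries, with a change of 1.5 ± 0.07 (adjusted p = 2e-10), and of 0.75 per cell without a call (adjusted p = 0.096). Manba, a mannosidase in the chromosome 3 segment, changed by 2.46. Ctsa, a protective protease, changed by 1.30 and Mcoln1, the lysosomal calcium channel, by 0.90. Mcoln1 was not called in the fit of all 12 libraries (adjusted p = 0.069). Ctsc, a dipeptidyl peptidase, fell by 3.24 on the log2 scale.

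Tfeb and its relatives bind the CLEAR site TCACGTGA. The upstream stretches of Ctsa and Mcoln1, both higher, show it in capitals, from RefSeq on GRCm38.p6. They are written 5′ to 3′ on the plus strand and span chr2:164833720-164833772 for Ctsa and chr8:3500433-3500518 for Mcoln1.
Ctsa: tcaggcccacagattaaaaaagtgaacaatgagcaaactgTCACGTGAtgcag
Mcoln1: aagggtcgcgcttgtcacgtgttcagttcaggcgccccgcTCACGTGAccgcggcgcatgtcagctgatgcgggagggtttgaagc
The site starts 13 bases before the start in Ctsa and 46 in Mcoln1. It was found for 7 of 44 lysosomal genes with a window (15.9%), against 1.96% of tested genes with one. It contains the E-box CACGTG. Of the 29 lysosomal genes that were higher and had a window 4 held it, as did 1 of the 8 that were lower. The gene of Tfeb itself changed by 0.73 ± 0.10 (adjusted p = 1.3e-05).

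FoxO factors enter the nucleus when insulin and PI3K signalling falls. Among 29 genes of this feedback 14 were higher and 10 lower, against 32.2% and 30.3% of all genes. At least a 2-fold change was seen for 4 higher and 4 lower members. The members named next are all from the higher ones. Irs2, the insulin receptor adaptor, changed by 1.35, Klf15, a metabolic zinc finger factor, by 1.98, and Ccng2, a cyclin linked to arrest, by 1.5. Of 33 genes of mTOR complexes and regulators 12 were higher and 10 lower (8 and 5 in the fit of all 12 libraries), close to the 32.2% and 30.3% of all genes, among them Lamtor3, a lysosomal anchor of mTORC1 in the chromosome 3 segment, at 1.66. Of 42 autophagy genes 16 were higher and 14 lower, close to the shares of all genes. Ulk2, an initiating kinase, was higher, with 25.7, 29.2 and 28.5 CPM in paused KO libraries against 9.61, 8.54 and 10.1 CPM in KO FBS libraries, a change of 1.56 ± 0.09 (adjusted p = 3.3e-09).

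Cell cycle genes split by phase. Of 50 genes of G2/M and mitosis 37 were higher and 3 lower relative to the typical gene, with a median of 0.26. Of all genes 32.2% were higher and 30.3% lower. Per cell none of the 50 was called higher and 3 were lower, with a median of -0.50. Mki67, the proliferation antigen, stood at 968 ± 46.7 CPM in paused KO cells and 486 ± 34.4 CPM in KO cells in FBS (SD, n = 3 each), a change of 0.99 (adjusted p = 1.8e-08). Foxm1, which drives mitotic transcription, changed by 0.83 and Cdc25b, the phosphatase that opens mitosis, by 1.19. Of 47 genes of DNA replication and nucleotide supply 23 were lower and 7 higher, at a median of -0.15. In the fit of all 12 libraries 10 were lower and 3 higher, and the lower share was near the 19.4% of all genes there. The CHR element TTTGAA, a known mark of mitotic promoters, was found for 29 of 41 G2/M genes with a window (70.7%), against 14% of tested genes with one.

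Genes that set the G1 phase changed in both directions. Ccnd2, a D-type cyclin (chr6:127125162-127152193), had 225, 272 and 269 CPM in paused KO libraries against 36.2, 37.0 and 42.7 CPM in KO FBS libraries. The groups were far apart, with a change of 2.72 ± 0.09 (adjusted p = 1.2e-11) and of 1.97 per cell. Cdkn1b, the CDK inhibitor p27, had 32.8, 35.3 and 32.9 CPM in paused KO libraries against 13.0, 13.4 and 13.8 CPM in KO FBS libraries, a change of 1.33 ± 0.08 (adjusted p = 2.5e-09). Of 23 genes of this group 9 were higher and 11 lower (6 and 7 in the fit of all 12 libraries), against 32.2% and 30.3% of all genes.

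Of the other genes of the m6A machinery some were called. Of 13 writers and erasers 3 were higher and 2 lower (2 and none in the fit of all 12 libraries), both below the shares of all genes. Mettl14, the structural partner of Mettl3, was higher by 0.66 ± 0.06 (adjusted p = 5.6e-07), with 42.3, 42.0 and 42.8 CPM in paused KO libraries against 27.7, 26.3 and 26.3 CPM in KO FBS libraries. It lies in the chromosome 3 segment, as does Rbm15, which recruits the writer complex and changed by 1.11. Of 12 readers 6 were lower and 1 higher (3 and none in the fit of all 12 libraries). Ythdf2, the reader that speeds decay of m6A transcripts, changed by -0.46, and Igf2bp1, a stabilising reader in the chromosome 11 segment, by -0.78. Among imprinted genes, Plagl1 changed by 1.98 and H19 by -2.40, and Amot, an X-linked angiomotin of the Hippo pathway, changed by -3.06.

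The change with pausing differed between KO and WT cells for 2731 of 15281 genes (17.9%), with a difference above 0 for 1469 (9.61%) and below 0 for 1262 (8.26%; edgeR interaction term over all 12 libraries). Without WT FBS replicate 1, which stands apart from its group, 6463 genes differed. Each gene whose difference is named as called in this paragraph and the next also passed without that library. Fgf18 changed by 3.73 in KO cells and 0.15 in WT cells (difference 3.60 ± 0.33, adjusted p = 3.3e-05). Ccnd2 changed by 2.72 in KO cells and 0.01 in WT cells (difference 2.73, adjusted p = 0.02). That difference lost its call without any 1 of several other libraries, with adjusted p up to 0.063. Tbx3 changed by -3.26 in KO cells and 0.01 in WT cells (difference -3.24, adjusted p = 0.00033). Nanog changed by -0.42 in KO cells and 0.91 in WT cells (difference -1.31, adjusted p = 0.00051).

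Of the lists, G2/M genes stood out in number, with 30 of 50 differences above 0 and none called below. Of all genes 9.61% differed above 0 and 8.26% below. The list counts in this paragraph are from the fit of all 12 libraries only and are not given without WT FBS replicate 1. Of 21 tested trophoblast markers 8 had a more negative change in KO cells and 1 a more positive one, and of 18 germline genes 9 had a more negative one. Differences above 0 were called for 8 of 21 stress regulators among the Atf4 targets, 6 of 14 serine and folate genes and 7 of 20 tRNA synthetases, with none below. Psat1 changed by -0.83 in KO cells and -2.67 in WT cells, and Stc2 by 1.18 in KO cells and -2.12 in WT cells. Ldha changed by -2.49 in KO cells and -2.30 in WT cells, and this difference was not called (-0.18 ± 0.39, adjusted p = 0.79).

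**Figure D5:**
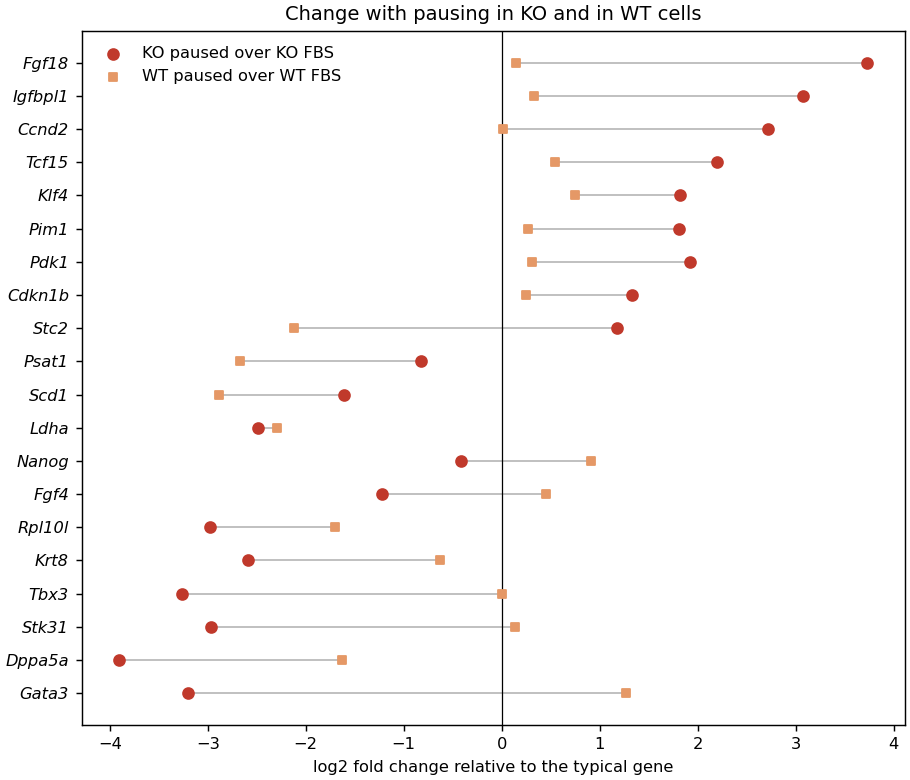
Relative log2 change with pausing of 20 genes in KO cells (circles, paused over FBS) and in WT cells (squares, paused over FBS). Fgf18, Ccnd2 and Tbx3 lie at 3.73, 2.72 and -3.26 in KO cells and near 0 in WT cells, while Ldha lies at -2.49 in KO cells and -2.30 in WT cells.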

How the data were processed

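The authors deposited raw read counts per gene and ERCC row, with no normalization, for 24421 gene rows and 92 ERCC rows. Per the submitters' processing notes, reads or counts passed through Trim Galore 0.4.0, Subread 1.5.0 with featureCounts, and edgeR 3.32.1, on mm10, with no roles given. Aligner, annotation and strand setting were not given in the sources used here, and overlapping genes may share reads. The authors also deposited log2 values per gene described as normalized to cell number, whose constants per library served only as an alternative scale.

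Counts of the 6 KO libraries were fitted with edgeR 4.0.16 in R 4.3.3 (robust quasi-likelihood test, Benjamini-Hochberg threshold 0.05). Genes passed the default low-count filter (minimum count 10, minimum total 15), which left 14977. Library size was the gene total with TMM factors (relative) or the ERCC total with TMM factors over ERCC rows (per cell, where an error in the ERCC total moves every gene together). The difference between KO and WT was an interaction term over 12 libraries and 15281 genes. The recovery of known fold changes was tested on simulated counts. These had a spread near that of the relative scale and no spread between libraries in RNA per cell, so they do not bear on the number of per-cell calls. Alternatives were DESeq2 1.42.0, other size factors, all 12 libraries, no filter, the replicate number as a block, and leaving out each library. Between paused and FBS KO libraries of the same number, deviations from the group means correlated at 0.288, 0.0899 and 0.235. Other pairs gave -0.273 to 0.0503. Replicate 1 also had the largest share of Rn45s and Lars2 in both KO groups, at 24.4% paused and 30.5% in FBS. The labels do not give the numbers as pairs, so the main fits left them out and the block was an alternative only. What links libraries of the same number was not tested.

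Positions are from GENCODE vM21 on GRCm38. Promoter windows are from RefSeq on GRCm38.p6. The comparison, the gene lists and the named genes were chosen with earlier results of these data known. Named genes were a fixed set (the writer genes Mettl3 and Mettl14, the Myc genes Myc and Mycn, Eif4ebp1, and the core factors Nanog, Pou5f1 and Sox2), genes from the 20 highest and 20 lowest changes with at least 5 CPM, and per list members with the lowest p, against the trend or of highest level. Some named genes lie outside this rule and were chosen after their values were seen. Some items are not reported here. Segments were chosen after the values were seen, with genes of at least 1 CPM. Medians of segments are differences of log2(CPM + 0.5).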

Additional observations from a re-analysis of the deposited data

Results flagged for a closer look

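The change with pausing differed between KO and WT cells, by the interaction term of edgeR, for the genes below, each of which is named above for its change in KO cells. Values are the log2 change in KO cells minus that in WT cells, on the relative scale, and all of them also passed without WT FBS replicate 1, the library that moves the count of such genes most.

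Above 0, the difference was 8.28 for Six3, 5.61 for Gsx1, 2.08 for Sox1 and 1.46 for Pax6 among neural factors. Among pluripotency and signalling genes it was 1.69 for Tcf15, 1.56 for Pim1, 1.53 for Spry4, 1.09 for Klf4, 1.01 for Fgfr2 and 0.77 for Spred1. Among Atf4 targets it was 5.17 for Nupr1, 3.32 for Stc2, 1.99 for Mthfd2, 1.86 for Psat1, 1.13 for Phgdh and 1.00 for Cebpg. Among metabolic and growth genes it was 1.63 for Pdk1, 1.29 for Scd1, 1.10 for Eef2k, 0.61 for Maf1 and 0.40 for Polr1a. Among cell cycle genes it was 2.73 for Ccnd2, 1.10 for Cdkn1b, 0.65 for Mki67, 0.62 for Cdc25b and 0.53 for Foxm1. Among other genes it was 3.60 for Fgf18, 2.77 for Igfbpl1, 1.87 for Gad1 and 0.72 for Nphs1. Among genes of the chromosome 3 segment it was 1.08 for Mettl14, 1.87 for Eif4e, 1.70 for Psma5, 1.90 for Sars, 1.88 for Slc16a1, 1.76 for Casq2, 1.96 for Lamtor3, 1.81 for Manba and 1.15 for Rbm15. Six3 was listed at 0 in paused WT cells and Nupr1 was near 0 there, so these sizes depend on the prior count. Without WT FBS replicate 1 the difference of Eef2k was 0.61.

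Below 0, the difference was -4.43 for Gata3, -2.24 for Plac8, -1.94 for Krt8, -1.67 for Dsp and -1.54 for Krt18 among trophoblast and epithelial genes. Among germline genes and the PRAME family member it was -3.10 for Stk31, -2.29 for Mael, -0.89 for Ddx4 and -3.36 for Pramef12. Among pluripotency genes and ligands it was -3.24 for Tbx3, -2.27 for Dppa5a, -1.77 for Bmp4, -1.66 for Fgf4 and -1.31 for Nanog. Among ribosomal protein paralogs it was -1.38 for Rpl39l and -1.27 for Rpl10l. Among genes of the chromosome 11 segment it was -3.64 for Calcoco2, -2.06 for Pecam1 and -0.60 for Igf2bp1. Plac8 was near 0 in both paused groups, and without WT paused replicate 3 its difference was -1.19 and not called.

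Of the 58 genes, 43 were called in every fit that left out 1 library. The other 15, namely Ccnd2, Cdc25b, Dsp, Eef2k, Gad1, Krt18, Maf1, Mthfd2, Nphs1, Nupr1, Pax6, Phgdh, Plac8, Polr1a and Rpl39l, lost the call without at least 1 library other than WT FBS replicate 1, with adjusted p up to 0.16 except for Plac8 (0.56).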

How the results depend on the processing

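The relative counts were within 1.5 times under all alternatives run except the fit of all 12 libraries, which called 3553 genes higher and 2965 lower. Per cell, the replicate block gave 489 genes higher and 7856 lower. Leaving out single libraries gave 1379 to 11342 per-cell calls in all, 67 to 411 higher and 1312 to 11025 lower, and 1819 to 6463 differences between KO and WT, 909 to 3796 above 0 and 895 to 2667 below. RNA per cell stayed lower in paused KO cells under all alternatives. Its log2 differences lay between -1.02 (without FBS replicate 1) and -0.53 (without FBS replicate 2). Pairing by replicate number leaves the mean difference at -0.78 whatever the data, since every library enters once. The exact permutation test within pairs gave p = 0.25, the smallest that 3 pairs can give. With the block 10443 genes were called on the relative scale, and each library correlated best with the one of its own number, a hint from the data and not from the design. Of 111 named genes, Mycn, Eif4ebp1, Fgfr2 and Mcoln1 lost their relative call in the fit of all 12 libraries, and Pou5f1 gained one under 5 alternatives. The log2 change of Myc, not called under any alternative, was -0.014 with DESeq2, -0.0060 with RLE size factors and -0.030 to 0.065 without single libraries. Per cell, Ctsl was called with DESeq2, all 12 libraries, the block or without FBS replicate 2. The causes were not tested. Depth limits the genes read near or below 1 CPM in a group, namely Plac8, Mael, Fgf5, Vrtn, Nupr1, Gsx1, Krt7, Acpp, Six3, Taf7l, Sox1, Neurog1, Stk31, Gata3 and Ctsc.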

Other observations

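Markers of other lineages changed less evenly than those of the trophoblast. Of 18 tested genes of extraembryonic endoderm, the yolk sac lineage, 9 were lower and 2 higher in paused KO cells, with a median of -0.56, and the whole list of 25 summed to 1095 ± 2.81 CPM in paused KO cells and 1175 ± 30.3 CPM in KO cells in FBS (SD, n = 3 each). Of 12 tested mesendoderm genes 3 were higher and 3 lower, below the 32.2% and 30.3% of all genes. That list summed to 641 ± 36.2 CPM in paused KO cells and 460 ± 19.7 CPM in KO cells in FBS. Of 17 tested genes of fibroblasts and mesenchyme 10 were lower and 4 higher (6 and 3 in the fit of all 12 libraries), and their list summed to 1766 ± 47.5 CPM in paused KO cells and 1433 ± 43.0 CPM in KO cells in FBS. The median member of each of these whole lists was lower in paused KO cells, so the rising sums followed a few genes. It stood at 0.584 CPM against 1.77 CPM in KO cells in FBS for extraembryonic endoderm. For mesendoderm it was 0.856 against 1.27 CPM, and for fibroblasts and mesenchyme 3.54 against 5.51 CPM. The part of cells of these lineages in the results was not tested.

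Among regulatory groups, 10 of 18 genes of the interferon and double-stranded RNA response were lower and 4 higher, with a median of -0.40. Of 30 p53 targets 12 were lower and 9 higher, against 30.3% and 32.2% of all genes. In the fit of all 12 libraries 4 of them were lower and 7 higher. Of 53 mRNA decay genes 18 were higher and 13 lower, with a median of -0.01, near the 32.2% and 30.3% of all genes, and 7 each were called in the fit of all 12 libraries. Of 11 genes of Polycomb repressive complex 2 there were 4 lower and 2 higher. Of 17 mitochondrial tRNA synthetases 8 were higher and 2 lower, which is 3 and 2 in the fit of all 12 libraries and 5 higher without paused replicate 2 or 3.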
